A study of Saccharomyces cerevisiae with 12 samples.

Results

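The 10 genes described here encode the core of the target of rapamycin (TOR) pathway of budding yeast and the protein phosphatases that act below it. They are *TOR1*, *TOR2*, *KOG1*, *LST8*, *SCH9*, *TAP42*, *SIT4*, *PPH21*, *PPH22* and *RTS3*, picked by name from 7130 listed genes, and all 10 had a value in every condition. Of these, 9 were chosen for the proteins they encode, though with earlier results of these data known. *RTS3* was selected on the measured rise of its mRNA in one of the contrasts below, so its values there are a description and carry no test.

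TOR is a protein kinase that couples growth to nutrients. In TOR complex 1 (TORC1), either Tor1 or Tor2 binds Kog1 and Lst8, and the complex promotes ribosome and protein synthesis when nitrogen and amino acids are plentiful. Tor2 and Lst8 also form TOR complex 2 (TORC2), which acts on the plasma membrane and the actin cytoskeleton. TORC1 signals by phosphorylating the kinase Sch9, and by controlling Tap42, a protein that binds the phosphatase Sit4 and the protein phosphatase 2A (PP2A) catalytic subunits Pph21 and Pph22. When TORC1 activity drops, these phosphatases release the GATA factors Gln3 and Gat1 to the nucleus, where genes for using poor nitrogen sources are switched on. Rts3 is a putative component of PP2A.

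The mRNA of 2 haploid strains grown in rich YEPD medium was sequenced. Both were MATalpha and carried the his3D1, leu2D0, lys2D0 and ura3D0 alleles. The wild type was BY4742, and tetO-*GLN4* (labelled McFY2) also had the native promoter of *GLN4* replaced by a KanMX4-tTA-tetO7 cassette, so that doxycycline represses the gene for glutamine tRNA synthetase. Untreated cultures and cultures with 1 μg/ml doxycycline of both strains were taken, which gave 4 conditions of 3 independent cultures and 12 samples. The deposited value is 1 FPKM (fragments per gene, scaled to its length and to the size of the library) per gene and condition, in which the 3 cultures were combined, with a 95% confidence interval. Values per culture and read counts were not analysed here, so the depth of the libraries is unknown and the errors given below are those of the deposited intervals. The strains were normalized in separate tables, and levels of the 2 strains are therefore set side by side without a test.

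*GLN4* itself was at 199.3 and 199.2 FPKM in the wild type without and with doxycycline. In tetO-*GLN4* it was at 30.5 FPKM with doxycycline, and it is listed at 0 without, under a status given to genes with too many fragments to be estimated, so no ratio was formed. The log2 ratio of FPKM with over without doxycycline was tested for every gene with a z test built on the deposited intervals, adjusted over all genes by the Benjamini-Hochberg method and called at an adjusted p under 0.05. With 1 combined value per condition no exact test over cultures could be made, and the z test rests on a normal approximation of those intervals. In the wild type 7 of 6560 genes were called (0.107%), and 27 had an unadjusted p under 0.05. In tetO-*GLN4* 2554 of 6553 were called (39.0%), of which 1236 were higher (18.9%) and 1318 lower (20.1%). The sum of all FPKM values in tetO-*GLN4* was 2.62e+06 without and 1.70e+06 with doxycycline, against 2.44e+06 in both wild-type conditions. Centring on the FPKM-weighted mean, which adds 0.67 to every log2 ratio in tetO-*GLN4*, turned the split into 3580 higher and 375 lower, so each direction below is relative to the deposited scale.

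The labelled mating type was checked with marker genes. The 4 alpha-cell markers summed to 18332 and 17035 FPKM in the wild type and to 18668 in untreated tetO-*GLN4*, but to 297 FPKM in tetO-*GLN4* with doxycycline, where all 4 were called lower. The 3 named are the pheromone genes *MF(ALPHA)1* and *MF(ALPHA)2*, with log2 ratios of -5.97 and -6.30, and *STE3*, the receptor for a-factor, with -5.73. The 6 a-cell markers summed to between 154 and 271 FPKM over the 4 conditions, and 4 were called higher in tetO-*GLN4*, among them *BAR1* at 1.36, *STE6* at 1.26 and *AGA2* at 1.13. No marker of either list was at 0 in any condition. This change accompanies every result in tetO-*GLN4* below, and its part in them was not tested. In such bulk RNA, fewer cells of a kind and less RNA per cell cannot be told apart.

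The 3 stretches of sequence that follow are shown first because the results on *RTS3*, *TAP42* and the PP2A pair refer back to them. They come from the RefSeq R64 genome, whose annotation gives the same position as the files for all 10 genes. The first pair are the 200 bases that end 101 bases before the coding start of *RTS3* (chrVII:809521-809720, minus strand) and of *TAP42* (chrXIII:327182-327381, plus strand), in which capitals mark GATAAG, the element bound by GATA factors, or its reverse complement. The last is a run of 194 bases that the coding sequences of *PPH21* (bases 193 to 386) and *PPH22* (bases 217 to 410) share without a mismatch.
*RTS3* promoter: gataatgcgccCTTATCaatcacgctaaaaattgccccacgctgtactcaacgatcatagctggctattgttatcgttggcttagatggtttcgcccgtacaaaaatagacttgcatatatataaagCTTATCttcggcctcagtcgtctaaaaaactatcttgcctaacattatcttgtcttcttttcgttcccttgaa
*TAP42* promoter: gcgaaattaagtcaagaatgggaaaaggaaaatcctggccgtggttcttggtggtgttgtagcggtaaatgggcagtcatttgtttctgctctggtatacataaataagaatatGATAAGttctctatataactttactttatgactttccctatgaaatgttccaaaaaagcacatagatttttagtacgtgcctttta
*PPH21* and *PPH22*, shared run: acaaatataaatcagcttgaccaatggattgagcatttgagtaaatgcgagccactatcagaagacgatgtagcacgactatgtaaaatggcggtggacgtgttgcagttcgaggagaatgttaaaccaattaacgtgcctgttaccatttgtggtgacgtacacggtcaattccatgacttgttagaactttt

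In the wild type, doxycycline left no detectable mark on the group. The log2 ratios of the 9 genes other than *RTS3* lay between -0.05 and 0.04, with SDs of 0.20 to 0.23 over all 10 genes, and 0 of 9 were called in a comparison with a background of 0.107%. The lowest unadjusted p of the z test was 0.812. *RTS3* was at 28.2 FPKM without and 28.9 with doxycycline (log2 ratio 0.03 ± 0.23, SD).

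In tetO-*GLN4*, 5 of these 9 genes were called, against 39.0% of all genes. The Tap42 gene, the kinase gene *SCH9* and *LST8* rose, 3 genes against a background of 18.9% called higher, while the phosphatase genes *SIT4* and *PPH22* fell, 2 genes against 20.1% called lower, though neither was called when centred on the FPKM-weighted mean. The other 4, *TOR1*, *TOR2*, *KOG1* and *PPH21*, did not pass the test. The median log2 ratio of the 9 was 0.27, beside 0.01 over all genes tested. The deposited 95% intervals of the 2 conditions lay apart for *LST8*, *TAP42*, *SIT4* and *PPH22*, 4 genes beside 31.1% of all genes. The difference between the responses of the strains was called for *LST8*, *TAP42* and *PPH22*, 3 of 9 genes beside 23.5% of all genes.

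**Figure D1:**
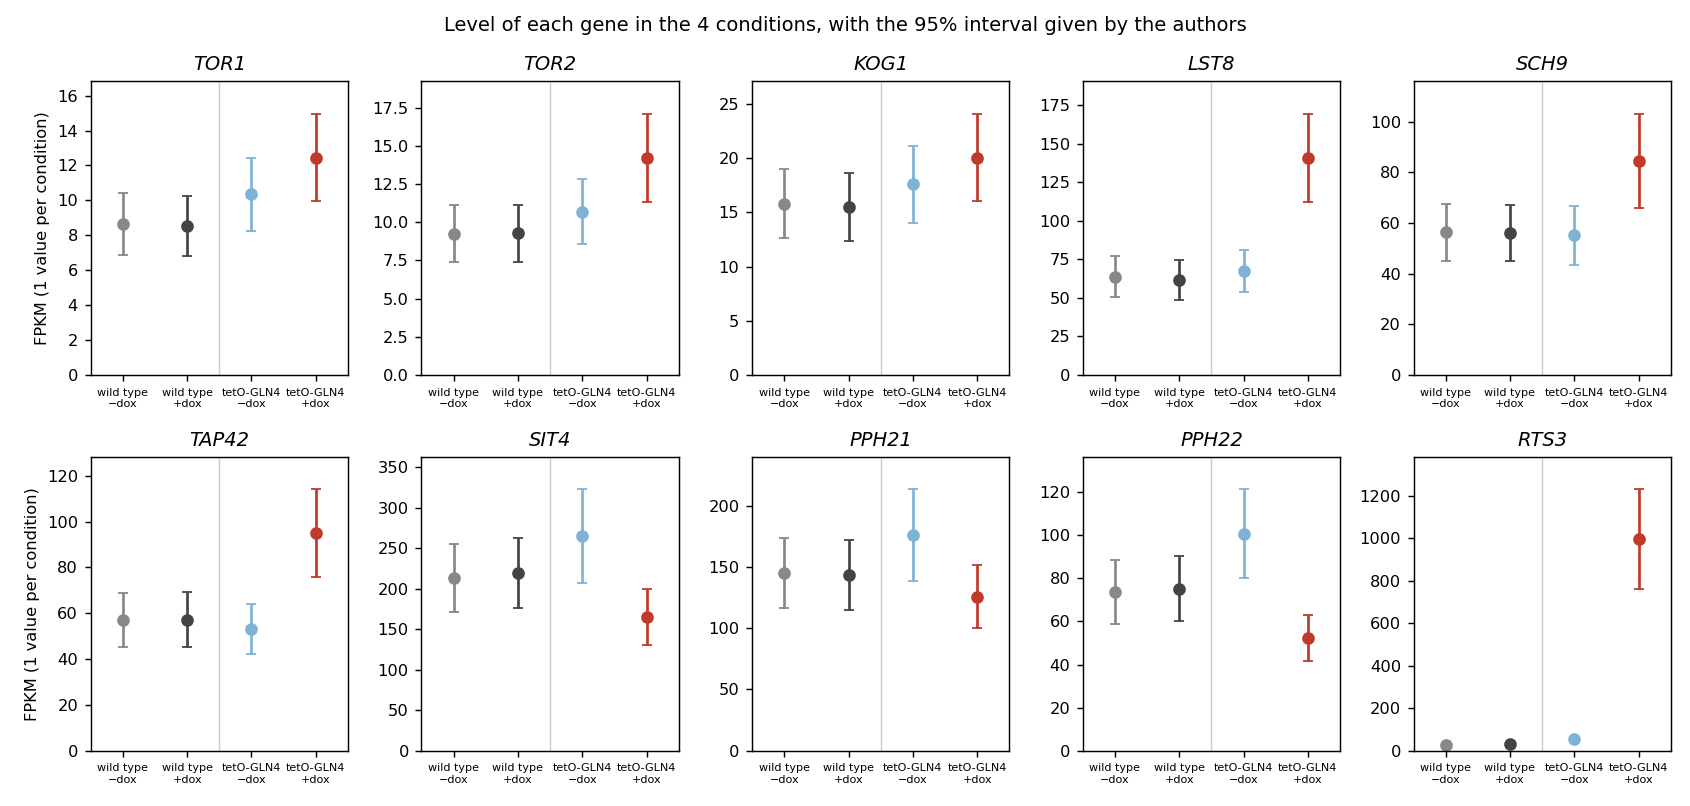
FPKM of each of the 10 genes in the 4 conditions (points, 1 value per condition) with the deposited 95% confidence interval (bars), where dox is doxycycline and the vertical line separates the 2 tables. Both wild-type points lie together in every panel, and in tetO-*GLN4* with doxycycline *LST8* reached 140.9, *TAP42* 94.9 and *RTS3* 996, while *SIT4* was at 165 and *PPH22* at 52.5.

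**Figure D2:**
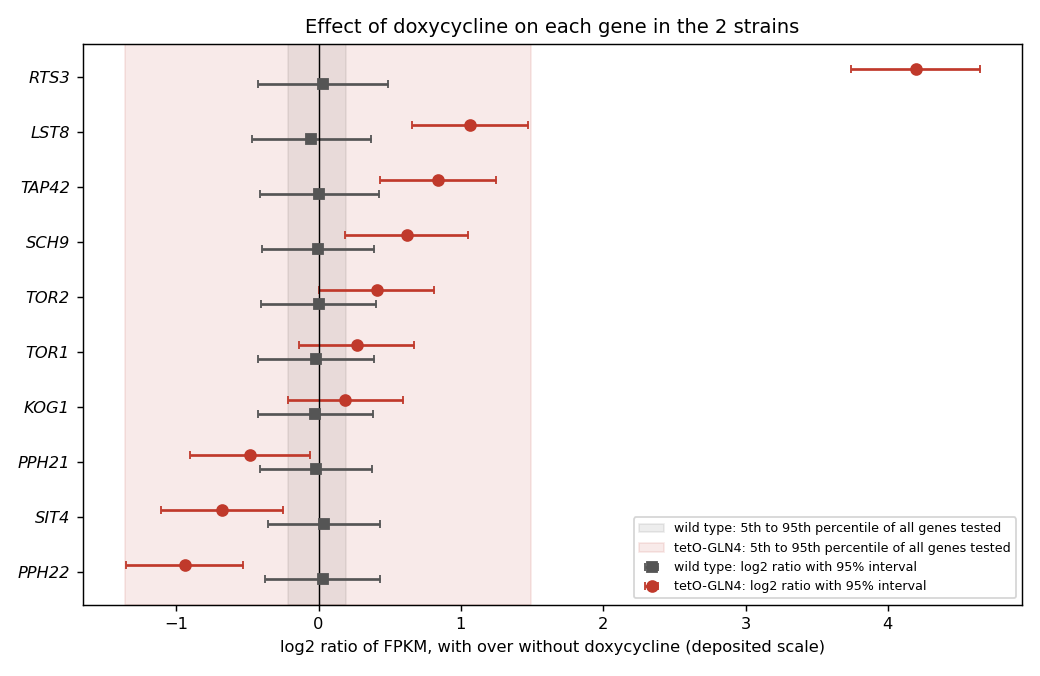
Log2 ratio of FPKM with over without doxycycline (points) with its 95% interval (bars) for each gene in both strains, over bands that span the 5th to the 95th percentile of all genes tested. Wild-type ratios cluster at 0, while those of tetO-*GLN4* spread from -0.94 for *PPH22* to 1.07 for *LST8*, with *RTS3* at 4.19.

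The kinase genes *TOR1* and *TOR2* were the least abundant of the group. *TOR1* (YJR066W, chrX:559416-566828, plus strand) was at 8.65 and 8.54 FPKM in the wild type without and with doxycycline, and at 10.3 and 12.5 in tetO-*GLN4*. In tetO-*GLN4* its log2 ratio came to 0.27 ± 0.21 (SD), with an interval of -0.13 to 0.67 (z test, adjusted p of 0.324). *TOR2* (YKL203C, chrXI:55935-63359, minus strand) was at 9.26 and 9.27 FPKM in the wild type, and at 10.7 and 14.2 in tetO-*GLN4*. The log2 ratio of *TOR2* was 0.41 ± 0.21 (SD), with an unadjusted p of 0.0474 and an adjusted p of 0.105 in the z test. For both kinases the deposited intervals of the 2 conditions overlapped. Their summed FPKM was 21.0 without and 26.7 with doxycycline, a log2 ratio of 0.34 ± 0.15 (SD), for which no test was set. The coding sequences of the pair were identical in 66.8% of aligned columns, with no shared stretch over 19 bases.

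*KOG1* (YHR186C, chrVIII:475999-480672, minus strand) encodes the subunit by which TORC1 is told from TORC2 and recruits its substrates. It was at 15.8 and 15.5 FPKM in the wild type without and with doxycycline, and at 17.6 and 20.1 in tetO-*GLN4*. These 4 values had overlapping intervals within each strain, and the ratio of tetO-*GLN4* was 0.19 ± 0.21 on the log2 scale (SD, interval -0.21 to 0.59, z test, adjusted p of 0.510).

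*LST8* (YNL006W, chrXIV:620067-620978, plus strand), whose WD-repeat protein binds the kinase domain in both complexes, rose in tetO-*GLN4*. It was at 63.6 and 61.4 FPKM in the wild type, at 67.3 in untreated tetO-*GLN4* (95% interval 53.5 to 81.1) and at 140.9 with doxycycline (112 to 170). The treated tetO-*GLN4* value thus stood above those of the other 3 conditions with no overlap of intervals, though levels were not tested across strains. The rise was 2.09-fold (log2 ratio 1.07 ± 0.21, SD, z test, adjusted p of 2.91e-06), and the difference from the wild-type response was 1.12 ± 0.30 (SD, adjusted p of 0.00170).

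Within the complexes, the genes were also set against each other by ratios inside one condition, which do not depend on the scaling of that condition. *LST8* over the sum of *TOR1* and *TOR2* was 3.55 and 3.45 in the wild type and 3.20 in untreated tetO-*GLN4*, and 5.29 with doxycycline. The log2 change of this ratio in tetO-*GLN4* was 0.72, with a 95% interval of 0.23 to 1.22. *LST8* over *KOG1* moved by 0.88 (0.30 to 1.45), from 3.82 to 7.02. The ratio of *KOG1* to the 2 kinases, by contrast, was 0.837 without and 0.753 with doxycycline, a log2 change of -0.15 whose interval ran from -0.65 to 0.34. These ratios were chosen after the values were seen and carry no test.

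*SCH9* (YHR205W, chrVIII:509363-511837, plus strand) encodes the kinase that TORC1 phosphorylates to promote ribosome synthesis. It was at 56.3 and 56.1 FPKM in the wild type and at 55.0 in untreated tetO-*GLN4* (43.4 to 66.7), and at 84.6 with doxycycline (66.0 to 103). The treated value was the highest of the 4, and its interval just overlapped that of the untreated strain. *SCH9* rose 1.54-fold (log2 ratio 0.62 ± 0.22, SD, z test, adjusted p of 0.0152). The difference from the wild type, 0.62 with an adjusted p of 0.118 in the z test, was not called.

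*TAP42* (YMR028W, chrXIII:327482-328582, plus strand), which encodes the regulator that joins TORC1 to the phosphatases, was at 57.0 and 57.2 FPKM in the wild type. In tetO-*GLN4* it was at 53.0 without doxycycline (42.2 to 63.9) and at 94.9 with it (75.8 to 114). Only the last value stood apart, with an interval above those of the other 3 conditions, though levels were not tested across strains. The rise was 1.79-fold (log2 ratio 0.84 ± 0.21, SD, z test, adjusted p of 0.000270), and it exceeded the wild-type response by 0.83 ± 0.30 (SD, adjusted p of 0.0249).

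Of the 3 catalytic subunit genes in the group, *SIT4* and *PPH22* were called lower and *PPH21* was not called. *SIT4* (YDL047W, chrIV:369771-370706, plus strand), the most abundant of the 3, was at 213 and 219 FPKM in the wild type. In tetO-*GLN4* it was at 265 without doxycycline (206 to 323) and at 165 with it (131 to 199.7). The wild-type values lay between these, and the 2 intervals of tetO-*GLN4* did not overlap. *SIT4* was 1.60-fold lower (log2 ratio -0.68 ± 0.22, SD, z test, adjusted p of 0.00676), while its difference from the wild type, -0.72, had an adjusted p of 0.0622 in the z test and was not called.

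*PPH22* (YDL188C, chrIV:123865-124998, minus strand) was at 73.8 and 75.3 FPKM in the wild type, at 100.8 in untreated tetO-*GLN4* (80.2 to 121) and at 52.5 with doxycycline (41.8 to 63.2). It showed the largest decrease of the 9 genes, 1.92-fold (log2 ratio -0.94 ± 0.21, SD, z test, adjusted p of 4.18e-05), and differed from the wild-type response by -0.97 ± 0.29 (SD, adjusted p of 0.00633). The untreated tetO-*GLN4* value was the highest of the 4 conditions and the treated one the lowest. Its paralog *PPH21* (YDL134C, chrIV:219662-220771, minus strand) was at 145 and 143 FPKM in the wild type, with tetO-*GLN4* at 176 untreated (138 to 213) and 126 treated (99.7 to 152). The log2 ratio of *PPH21* was -0.48 ± 0.21 (SD, interval -0.90 to -0.06), with an adjusted p of 0.0606 in the z test.

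Reads of the 2 genes can be confused where the sequences are the same. Their coding sequences were identical in 86.2% of 1134 aligned columns, and 161 of the 1061 windows of 50 bases in *PPH21* (15.2%) and 161 of 1085 in *PPH22* (14.8%) occur elsewhere in the genome, as in the shared run printed above. None of the other 8 genes had such a window. How reads that match both were shared out is not given in the sources used here, so the split between the 2 genes is uncertain. Their sum, on which that split has little bearing, was 219 FPKM in both wild-type conditions with 276 in untreated and 178 in treated tetO-*GLN4*, a log2 ratio of -0.63 ± 0.16 (SD). *PPH21* exceeded *PPH22* by 1.74-fold without and 2.39-fold with doxycycline, and the interval of that log2 change, -0.13 to 1.04, included 0.

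Expressed against the 3 catalytic subunits together, *TAP42* stood at 0.132 and 0.131 in the wild type and at 0.0980 in untreated tetO-*GLN4*, and at 0.276 with doxycycline. The log2 change was 1.496 in tetO-*GLN4* (1.01 to 1.98), or 2.82-fold, and -0.01 in the wild type (-0.50 to 0.47). This is a ratio of mRNA levels per length and, like the others, was chosen after the values were seen. It is untouched by the scaling of a condition, whereas the falls of *SIT4* and *PPH22* were not independent of it. Centred on the FPKM-weighted mean, their log2 ratios were -0.01 and -0.27 (z test, adjusted p of 0.987 and 0.261). That of *PPH21* then became 0.19, while *TOR1* (0.94), *TOR2* (1.08) and *KOG1* (0.86) were called higher.

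**Figure D3:**
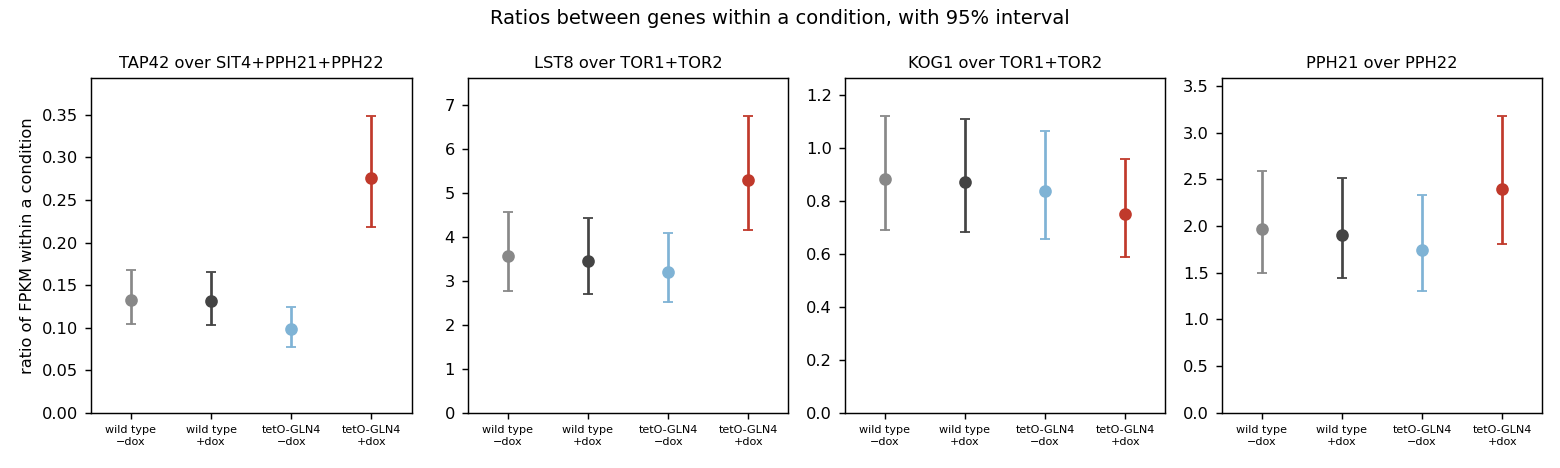
Ratio of FPKM between genes within each of the 4 conditions (points), with 95% intervals (bars), where dox is doxycycline. *TAP42* over the 3 catalytic subunits and *LST8* over the 2 kinases are highest in tetO-*GLN4* with doxycycline, at 0.276 and 5.29, while the bars of *KOG1* over the kinases and of *PPH21* over *PPH22* overlap in all conditions.

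**Figure D4:**
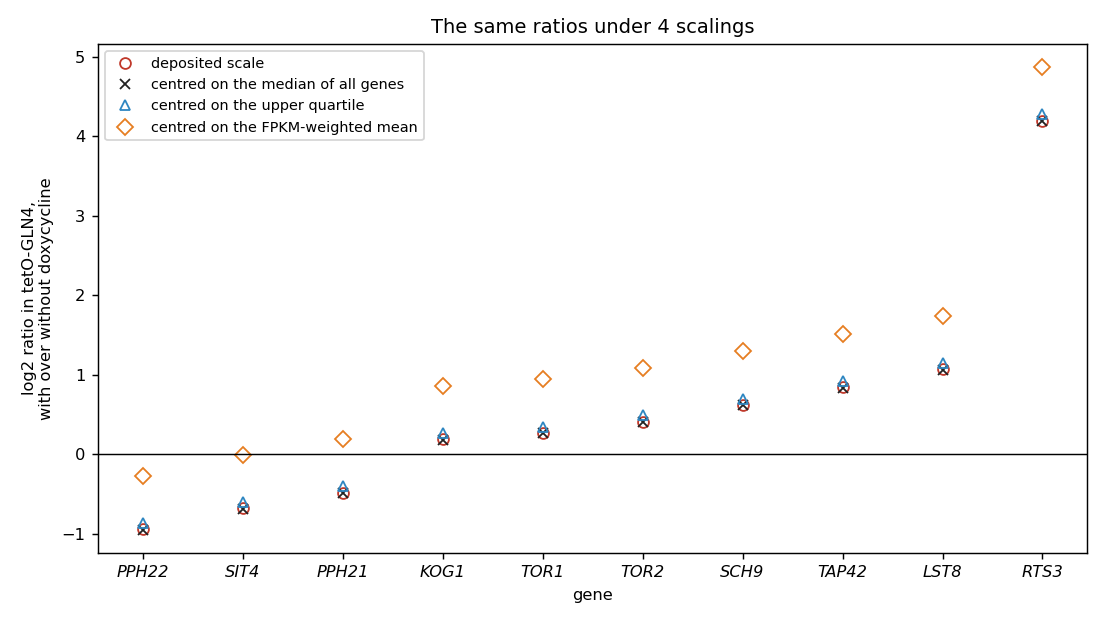
Log2 ratio in tetO-*GLN4* for each gene on the deposited scale and under 3 other centrings. The median and the upper quartile move the points by no more than 0.08, while centring on the FPKM-weighted mean adds 0.67 to each, which brings *SIT4* to -0.01 and *PPH22* to -0.27.

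*RTS3* (YGR161C, chrVII:808629-809420, minus strand) had by far the largest ratio of the 10, as its selection on that rise implies. It was at 28.2 (21.8 to 34.7) and 28.9 FPKM (22.3 to 35.5) in the wild type, at 54.4 (42.7 to 66.1) in untreated tetO-*GLN4* and at 996 (763 to 1230) with doxycycline. The ratio of treated to untreated tetO-*GLN4* was 4.19 ± 0.23 (SD) on the log2 scale, or 18.3-fold, the 10th highest of 6553 genes. In untreated tetO-*GLN4* its FPKM was 1.93-fold that of the untreated wild type, a log2 ratio of 0.95 beside a median of 0.15 and a 95th percentile of 0.87 over all genes. The same ratio of the other 9 genes ran from 0.930-fold for *TAP42* to 1.37-fold for *PPH22*. These levels come from separately normalized tables and were not tested.

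The 5 genes nearest to *RTS3* were taken by the distance of their 2 log2 ratios (wild type and tetO-*GLN4*) from those of *RTS3*, among 6348 genes with an FPKM of at least 1 in all 4 conditions. The nearest was *SPG4*, a stationary-phase gene, at a distance of 0.10 and with a log2 ratio of 4.16 in tetO-*GLN4*. It was followed by *PUT1*, the proline oxidase gene of proline catabolism (4.32), *IRC13* (4.21 ± 1.10, SD), the cell wall gene *PIR3* (3.97) and *NQM1*, which encodes a transaldolase (4.03). *IRC13* overlaps the RNA gene *SNR17A*, and its reads may belong to either. *RTS3* reached 996 FPKM where the others were at 123, 138, 23.1, 395 and 135 FPKM, in the order given. None of the 10 genes of the group overlaps another listed gene.

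The order of levels changed with *RTS3*, whose rise was the reason for its selection. In the untreated wild type *SIT4* and *PPH21* were highest, with overlapping intervals, followed after a gap by *PPH22*, *LST8*, *TAP42* and *SCH9*, each of which overlapped its neighbour. *RTS3*, *KOG1* and then *TOR2* were each separated from the gene above, and *TOR1* overlapped *TOR2*. With doxycycline the wild type kept this order, with *PPH21* now clear of *SIT4*. In untreated tetO-*GLN4* *RTS3* had joined the middle set between *SCH9* and *TAP42*. In tetO-*GLN4* with doxycycline *RTS3* was first and clear of *SIT4*, *LST8* overlapped *SIT4* above it and *PPH21* below it, and *PPH22* stood below *SCH9* with no overlap.

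The 300 bases before each coding start were searched on both strands for 5 elements tied to the outputs of the pathway. GATAAG was found in 14.7% of 6007 promoters and in 3 of the 10 genes. *RTS3* had 2 matches, at 289 to 284 and 173 to 168 bases before its start, both in capitals in the sequence above, *TAP42* had 1 at 186 to 181 and *TOR1* had 1 at 111 to 106. The stress response element core AGGGG was in 22.2% of promoters and in 4 of the genes, *TOR1*, *SCH9*, *SIT4* and *PPH21*. TGACTC, the core bound by Gcn4, was in 7.76% and in *TOR1* alone, and AAAAATTT, bound by Stb3, was in 15.1% and in *SCH9* alone. GATGAG, bound by Dot6 and Tod6, was in 19.1% and in 0 of the 10. *LST8*, *PPH22*, *TOR2* and *KOG1* held none of these letters. A match describes the sequence and is not a measured binding site.

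Because Gln4 charges the glutamine tRNA, glutamine codons were also counted. They made up a median of 3.69% of codons over 5678 coding sequences of more than 300 bases. *RTS3* had 5 in 263 codons (1.90%, the 6.25th percentile), and *KOG1* had 112 in 1557 (7.19%, the 95.5th percentile). *TAP42* was also rich in them at 6.01%, *LST8* was near the median at 3.63%, and the other 6 genes lay between 4.18% and 4.88%. Whether this share bears on the response was not tested.

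The rest of the pathway was followed with 7 lists. In the wild type none of their 98 genes was called. Of 12 other subunits and effectors of TORC1 and TORC2, 2 rose in tetO-*GLN4*, 0 fell and 10 were not called, with a median log2 ratio of 0.11. Both that rose belong to TORC2, *BIT61* (1.08 ± 0.22, SD, 15.5 to 32.8 FPKM) and *AVO2* (0.70 ± 0.23, SD), and the difference between strains was called for 1 of the 12, beside 23.5% of all genes. The list upstream of TORC1, with the amino acid sensing complexes and the rapamycin receptor, had 4 of 19 higher and 3 lower with a median of -0.03. *IML1* (0.78) and *NPR2* (0.56) of the SEACIT complex, which restrains TORC1, were higher, while *NPR3* of that complex (-0.03) was not called. Also higher were *SLM4* (0.74) of the EGO complex, which anchors TORC1 at the vacuole, and *PIB2* (0.54). The other EGO genes *MEH1* (-0.84) and *EGO2* (-0.83) fell on the deposited scale, but were at -0.17 and -0.16 and not called when centred on the FPKM-weighted mean, and the *EGO2* paralog *EGO4* fell from 404 to 135 FPKM (-1.58). The difference between strains was called for 4 of the 19, beside 23.5% of all genes, and not for *NPR2*, *SLM4* or *PIB2*.

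Among 18 regulators and partners of PP2A, Sit4 and related phosphatases, 4 rose, 0 fell and 14 were not called, with a median of 0.02. *RRD2*, whose protein activates PP2A, rose from 25.9 to 70.3 FPKM (1.44 ± 0.22, SD), *SAP4*, which encodes a Sit4-associated protein, rose by 0.97 on the log2 scale and *PPE1*, the gene for the enzyme that demethylates the PP2A catalytic subunit, by 0.90. The remaining gene called higher, *PPG1* of a related phosphatase, rose by 0.50 (z test, adjusted p of 0.0411). The difference between strains was called for 3 of the 18, beside the 23.5% of all genes, and not for *PPG1*. The scaffold gene *TPD3* and the regulatory subunit genes *CDC55* and *RTS1*, named after their values were seen, had log2 ratios of -0.06, -0.27 and -0.27 and were not called.

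Of 20 kinases and transcriptional regulators downstream of TORC1, 6 rose and 2 fell, with a median of 0.17. The GATA activator *GLN3* rose from 23.7 to 71.1 FPKM (1.58 ± 0.21, SD) and the retrograde activator *RTG3* by 1.21. The kinase gene *NPR1*, which controls amino acid permeases, rose by 1.09. *URE2*, *GAT1* and *MSN4* also rose, by 0.80, 0.72 and 0.55. *MAF1*, a repressor of RNA polymerase III (-0.60), and the zinc-finger gene *GIS1* (-0.59) fell on the deposited scale, but were at 0.072 and 0.080 when centred on the FPKM-weighted mean. The difference between strains was called for 4 of the 20, *GLN3*, *RTG3*, *NPR1* and *URE2*, beside 23.5% of all genes.

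The 14 targets of nitrogen catabolite repression, genes that GATA factors activate, had 10 higher, 1 lower and 3 not called and a median of 1.27. *PUT1* rose from 6.91 to 137.8 FPKM (4.32), the allantoate permease gene *DAL5* from 17.2 to 64.5 (1.90) and the urea transporter gene *DUR3* from 46.7 to 141 (1.60). *GLN1*, the glutamine synthetase gene, fell from 4239 to 1879 FPKM (-1.17). The difference between strains was called for 11 of the 14, beside 23.5% of all genes. Only 1 of 5 retrograde pathway targets was called, *DLD3*, a D-lactate dehydrogenase gene (0.60), and the median of that list was -0.27, with 0 of 5 differences between strains called. The 5 summed to 876 FPKM in the untreated wild type, 1711 in untreated and 1695 in treated tetO-*GLN4*, not tested across strains.

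The 10 stress targets of Msn2 and Msn4 split, with 4 higher and 5 lower and a median of -0.40. The stress genes *DDR2* (3.12), *HSP26* (3.07) and *HSP12* (0.94) rose, while *GSY2*, the glycogen synthase gene (-2.40), *PGM2*, the phosphoglucomutase gene (-2.38), and *TPS1*, the trehalose synthase gene (-1.62), fell. Set side by side without a test, *HSP12* went from 1340 to 2575 FPKM, below the 5015 of the untreated wild type. *DDR2* reached 6185 and *HSP26* 829 FPKM, above the 1029 and 142 of the untreated wild type. The difference between strains was called for 8 of the 10, beside 23.5% of all genes. All 7 lists were compiled with earlier results of these data known, and their counts stand beside the 18.9% and 20.1% of all genes called in each direction without a test of the list.

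**Figure D5:**
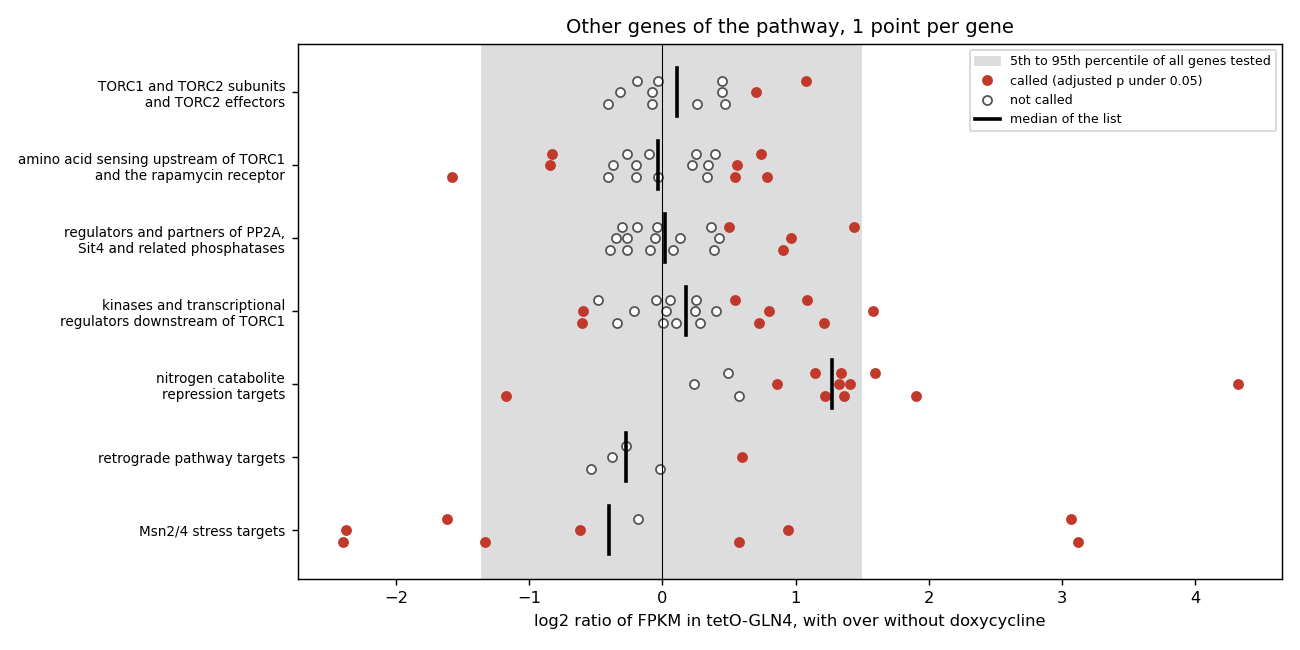
Log2 ratio of FPKM with over without doxycycline in tetO-*GLN4* for each gene of the 7 lists (1 point per gene, filled where called), with the median of the list (vertical bar) and the 5th to 95th percentile of all genes tested (band). The nitrogen catabolite repression targets have a median of 1.27, the other lists have medians between -0.40 and 0.17, and the stress targets lie on both sides of 0.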

How the data were processed

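Per the submitters' processing notes, the authors mapped reads from stranded mRNA libraries to sacCer3 (R64) with TopHat 1.4.0 and made the deposited FPKM values with Cufflinks and Cuffdiff, separately for each strain. Cuffdiff combined 3 cultures into 1 FPKM per gene and condition with a 95% interval. Strand handling in counting is not given in the sources used here. The authors' tables of their own fold changes, test statistics, p-values and q-values were not used. For all genes with status OK and an FPKM above 0 in both conditions, log2 ratios without a pseudocount were tested with a z test. In it 1 SD was the upper bound less the FPKM, divided by 2, and printed 95% intervals were ± 1.96 SD. Benjamini-Hochberg adjustment ran over all genes (called under 0.05). The test was tried on simulated data drawn with these same SDs, which cannot show whether the deposited intervals are right. In the wild type 0.41% of genes had an unadjusted p under 0.05 in this z test, so the SDs may be too wide. A gene not called is therefore not shown to be unchanged. The p-values measure only the error of the deposited intervals. The difference between strains was tested on the ratios with summed variances. Of 7130 genes, another status was given to 4 (wild type) and 7 (tetO-*GLN4*).

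The members and the 9 lists were chosen with earlier results of these data known. All 10 members are named, with up to 3 called genes per list and direction, the 5 genes nearest to *RTS3* and genes overlapping a member. The alternatives tried were a pseudocount (1 or 0.1), a minimum FPKM (1), 3 centrings, a threshold of 0.01, intervals that lie apart, a 2-fold difference and 1.96 SDs. Names were matched to RefSeq R64 for 6048 listed genes. Python 3.11.15, pandas 2.3.3, numpy 2.4.6, scipy 1.17.1 and Biopython 1.88 were used.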

Additional observations from a re-analysis of the deposited data

Results flagged for a closer look

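The response to doxycycline differed between tetO-*GLN4* and the wild type in the z test of the difference itself for 29 of the core genes and named list genes. The list genes were named because they were called in tetO-*GLN4*, so this count says nothing about how common such differences are. Each value is the log2 ratio in tetO-*GLN4* minus that in the wild type. Of the core genes these were *LST8* (1.12), *TAP42* (0.83) and *PPH22* (-0.97). *RTS3* was not tested, since it was chosen for its rise.

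Among the other complex subunits and upstream genes the difference was 1.08 for *BIT61*, 0.81 for *IML1*, -0.89 for *MEH1*, -0.89 for *EGO2* and -1.37 for *EGO4*. Among the phosphatase partners it was 1.46 for *RRD2*, 1.05 for *SAP4* and 0.88 for *PPE1*. Downstream of TORC1 it was 1.64 for *GLN3*, 1.25 for *RTG3* and 1.09 for *NPR1*. The ratios of *MEH1* and *EGO2* in tetO-*GLN4* were -0.17 and -0.16 and not called when centred on the FPKM-weighted mean.

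The nitrogen genes *PUT1* (4.27), *DAL5* (1.95), *DUR3* (1.84) and *GLN1* (-1.20) differed, as did the stress targets *DDR2* (3.46), *HSP26* (3.25), *HSP12* (1.05), *TPS1* (-1.54), *PGM2* (-2.32) and *GSY2* (-2.36). The mating-type markers gave the largest values of those named, -6.16 for *MF(ALPHA)2*, -5.87 for *MF(ALPHA)1* and -5.73 for *STE3*, with 1.43 for *BAR1* and 1.39 for *STE6*.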

How the results depend on the processing

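Leaving out each culture was not run, since 1 value per condition was used. No paired analysis was possible because the 3 cultures of a condition were combined into 1 FPKM. Centring on the FPKM-weighted mean gave 3955 calls in tetO-*GLN4* and 2970 for the difference between strains, and it moved *RTS3* to 4.87. It also moved the list medians to 0.78 (complex subunits), 0.64 (upstream), 0.69 (phosphatase partners), 0.85 (downstream regulators), 1.95 (nitrogen), 0.40 (retrograde), 0.27 (stress), -5.18 (alpha-cell) and 1.72 (a-cell), and turned *MAF1* to 0.072, *GIS1* to 0.080 and *PPH21*, not called on either scale, to 0.19 and its difference between strains to 0.20. In the wild type *SCH9*, at -0.0038, became 0.0049 under it and 1.7e-05 when centred on the upper quartile. Under it the difference between strains was called for *TOR1* (0.95), *TOR2* (1.07), *KOG1* (0.88) and *SCH9* (1.29), and not for *PPH22* (-0.31). A 2-fold difference without a test gave 1349 genes in tetO-*GLN4* (20.6%), 74 in the wild type (1.13%) and 1 of the 9 genes, *LST8*. Under the other alternatives 4 to 6 of the 9 were called, beside 29.4% to 60.4% of all genes. The 6 of 9 came with centring on the FPKM-weighted mean, beside 60.4%, and on the upper quartile, beside 38.9%. *SCH9* lost its call at an adjusted p under 0.01 and by intervals that lie apart, and *TOR2* gained one when centred on the upper quartile (0.49, adjusted p of 0.0468). The difference for *TAP42* was lost at 0.01. No member was called in the wild type under any alternative. For single genes, 569 values were unchanged, 35 lost the call, 8 gained it and 6 changed sign. Unchanged means the same direction and call, or for the untested ratios of *RTS3* a move of less than 1 SD. The other 2 values, both of *RTS3*, moved further. A value with a changed sign is counted only there, though *MAF1* and *GIS1* also lost their call. Part of the 569 was fixed in advance, since a threshold of 0.01 cannot add a call. Nor does another threshold or rule for calling alter the untested ratios of *RTS3*.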

Other observations

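Several genes of the lists had unlike levels in the untreated strains, and the values are given side by side because the tables were normalized separately. They were picked after their values were seen. The TORC2 effector kinase gene *YPK2* was at 15.99 FPKM in the untreated wild type and at 55.3 in untreated tetO-*GLN4* (3.46-fold), and stayed at 52.3 with doxycycline. The retrograde target *CIT2*, a citrate synthase gene, was at 97.3 and 436 FPKM (4.49-fold), and *EGO4* at 85.8 and 404 (4.71-fold). The median of all genes was 1.11-fold.

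For the storage carbohydrate genes the decrease with doxycycline in tetO-*GLN4* brought the level nearer to that of the wild type. *GSY2* was at 38.9 FPKM in the untreated wild type, 149 in untreated tetO-*GLN4* and 28.1 with doxycycline. *PGM2* was at 24.5, 132 and 25.4 FPKM in the same order, and *TPS1* at 111.5, 371 and 121. *LST8*, *SCH9* and *TAP42* did not follow this pattern: their treated level in tetO-*GLN4* was above all 3 other conditions. For *SCH9* the interval overlapped those of all 3. *RTS3* also had its highest level in treated tetO-*GLN4*, as its selection on that rise implies. *TOR1*, *TOR2* and *KOG1*, which were not called, also had their highest level there.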
